A study of Mus musculus with 4 samples.

Results

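The proteasome is the protease that degrades ubiquitin-tagged proteins, and its subunits and assembly factors were followed here through 50 genes of mouse tibialis anterior muscle. Members were all gene names that begin with Psma to Psmg and a number, together with the activators Psme1 to Psme4 and the inhibitor Psmf1, among 32868 gene names in the per-library tables. None of the 50 was listed at 0 in every library, and 48 reached 0.5 RPKM (reads scaled to gene length and library depth) in at least 2 libraries and were tested. The name pattern also brought in Psmc3ip, which encodes a partner of a proteasome ATPase that acts in meiotic recombination, and Psme2b, a copy of the Psme2 gene. These 2 are no proteasome subunits, but they are counted among the 50 members and the 48 tested.

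The muscle came from C57BL/6 mice at postnatal day 21. The Het group carried the genotype Nf1flox/+/Myf5+, with 1 floxed allele of Nf1, and the Nf1-KO group carried Nf1flox/flox/Myf5+, with 2 floxed alleles. Each group had 2 libraries. Both groups carry the mark Myf5+, which the labels do not spell out. In crosses of this kind it stands for Cre recombinase expressed from Myf5, a gene of muscle precursors, and cells outside that lineage then keep their Nf1 alleles. A group without a floxed allele was not analysed here. The design text counts 2 muscles a group and does not say that they came from separate animals, so p-values measure only the spread between these libraries. In whole muscle, fewer cells of a type and less RNA per cell cannot be told apart.

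Proteins marked with ubiquitin are recognised, unfolded and cut by the 26S proteasome. Its 20S core is a barrel of 2 outer rings of alpha subunits and 2 inner rings of beta subunits, and Psmb5, Psmb6 and Psmb7 encode the beta subunits that cut. A 19S cap with a ring of ATPases (Psmc genes) and a set of non-ATPase subunits (most Psmd genes) binds ubiquitin and feeds the substrate into the core. In immune cells, and after interferon, the catalytic subunits Psmb8, Psmb9 and Psmb10 take the place of Psmb5, Psmb6 and Psmb7 and form the immunoproteasome, which makes peptides for antigen presentation. In skeletal muscle the proteasome is the main route by which myofibrillar proteins are degraded, and its genes are known to be induced during atrophy.

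Nf1 itself stood at 1.09 and 1.01 RPKM in Het and at 0.89 and 0.85 RPKM in Nf1-KO, so the groups did not overlap in the direction of their labels. By scaled values the groups do not overlap in 76.3% of all tested genes, so this is a weak check of the labels. The log2 fold change of Nf1 was -0.18 (limma adjusted p 0.041), and without scaling it was -0.13 (adjusted p 0.094). Library depth, estimated from the steps of low values, was 36500000 to 58100000 reads and did not separate the groups. The muscle markers Acta1, Ckm, Mb, Des, Ttn, Tnnt3 and Myh4 summed to 44809 and 44910.8 RPKM in Het and to 38640.4 and 38300.5 RPKM in Nf1-KO, with 5 of the 7 lower (background 25.4%) and Mb and Des higher. Markers of other cells were present at lower levels. The 11 leukocyte markers summed to 28.1 to 28.6 RPKM in Het and 62.6 to 64.2 RPKM in Nf1-KO, with Adgre1 listed at 0 in every library. Most of these sums was Cd74 (means of 15.3 and 28.6 RPKM) and Lyz2 (7.42 and 24.5 RPKM). The 4 Schwann cell markers summed to 14.5 to 14.9 RPKM and 32.3 to 33.5 RPKM, the 3 fibroblast markers to 64.5 to 66.5 RPKM and 99.4 to 99.5 RPKM, and the 5 endothelial markers to 69.7 to 70.0 RPKM and 74.8 to 75.7 RPKM. Their part in the values below was not tested, except where a value is given beside a result.

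The proteasome genes as a group stayed near their Het level in Nf1-KO muscle, and 3 members stood out. Psmd8, a subunit of the 19S cap, and Psme4, the activator PA200, were lower, and Psmg4, a chaperone of 20S assembly, was higher. These 3 were the only tested members with an absolute log2 fold change over 0.5, which is 6.25% of the 48 tested members and compares with 9.93% of all tested genes. At the other end, 41 members (85.4%) had an absolute log2 fold change under 0.2, against 59.8% of all tested genes. The median absolute log2 fold change was 0.08 over the members and 0.16 over all 10690 tested genes.

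Of the 48 tested members, 16 (33.3%) passed a limma adjusted p of 0.05, with 6 higher and 10 lower in Nf1-KO. Without Psmc3ip and Psme2b it was 16 of 46 (34.8%). The background was 50.3% of all tested genes, 24.9% higher and 25.4% lower, and 63.8% of those with a mean of at least 5 RPKM, so the members' share lay below these backgrounds, a description with no test of its own. The split depends on how libraries are scaled. Without scaling, the median log2 fold change of all tested genes moved to 0.07, 17 members were called higher (background 35.2%) and 6 lower (background 17.6%), and the share of calls that were higher went from 37.5% to 73.9%. The 6 higher members were called higher on both scales, though Psma1, Psma6, Psmb1 and Psmb3 each lost the call with no filter and with no variance trend, and 6 of the 10 lower members were called lower on both. The count of higher members was 3 when Het replicate 1 or Het replicate 2 was left out, and 2 with no filter on low genes or with no variance trend. The authors' deposited table called 9 of the 48, against 31.6% of its genes. Both fits called these 9 with the same sign: Psmd8, Psme4, Psme1, Psmb5, Psmd6 and Psmd2 lower, and Psmg4, Psmb4 and Psma1 higher. The 2 fits rest on the same libraries, and the direction of the authors' table was itself read from their values.

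**Figure D1:**
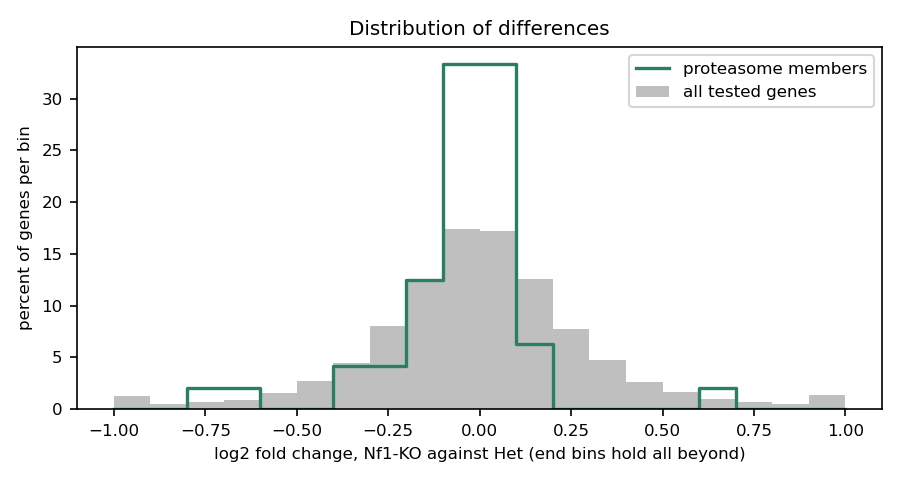
Percent of genes in each 0.1-wide bin of the log2 fold change of Nf1-KO against Het, for all 10690 tested genes (grey bars) and the 48 tested proteasome members (green line). The members crowd the 2 bins beside 0, with 33.33% in each, and Psmd8, Psme4 and Psmg4 lie apart from them.

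The summed level of the 50 members came as deposited to 1609 and 1594.5 RPKM in Het and to 1653.6 and 1664.8 RPKM in Nf1-KO. After scaling it was 1661.1 and 1649 against 1601.6 and 1610.0 RPKM. The order of the groups thus turned with the scaling, and the ratio of Nf1-KO to Het was 0.97 with it and 1.04 without it. Levels spanned a wide range that followed the members' roles. The 31 constitutive subunits of the 20S core and the 19S cap lay between 15.6 and 83.7 RPKM in Het, as means of 2 libraries, while the immunoproteasome subunits lay between 2.39 and 6.14 RPKM and the assembly chaperones between 3.58 and 6.83 RPKM. Even within a ring whose subunits are present in equal number, RPKM differed between members: the coefficient of variation over the 7 alpha subunits was 31.5% to 33.9% in a library, and over the 7 beta subunits it was 44.2% to 50.8%.

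**Figure D2:**
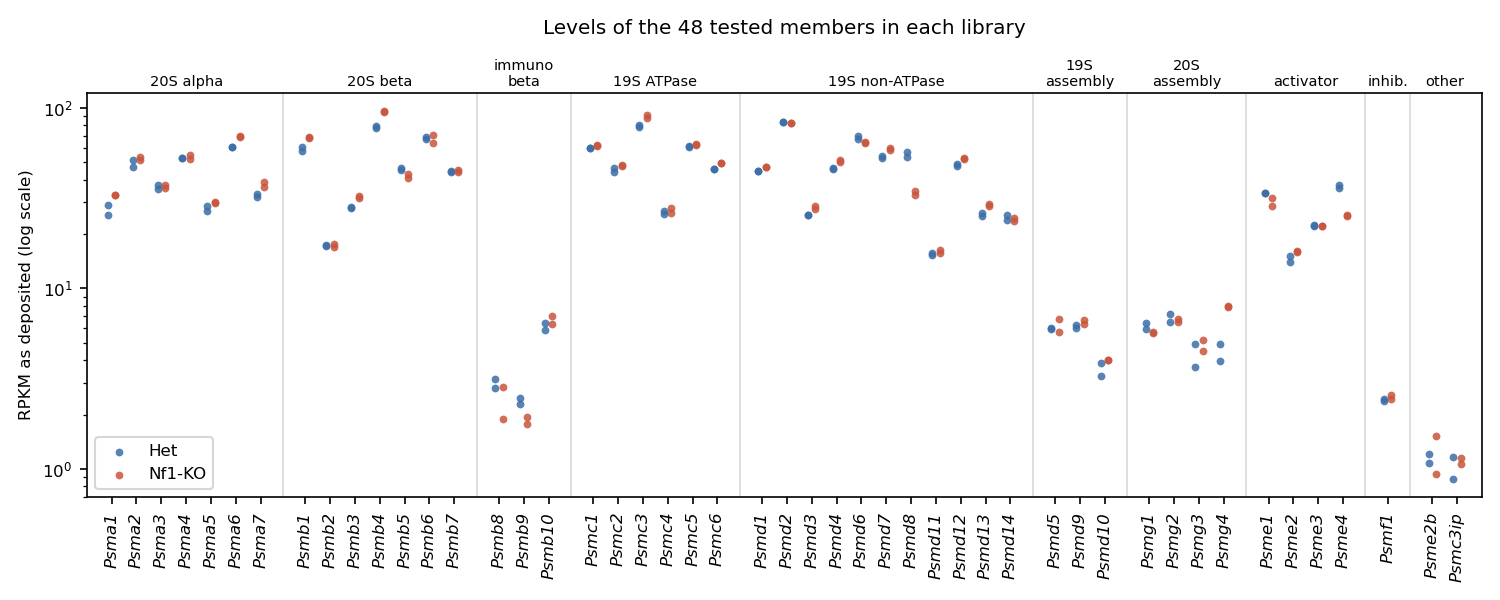
RPKM as deposited (log axis) of the 48 tested members, grouped by their place in the proteasome, with 1 point for each Het (blue) and Nf1-KO (red) library. The constitutive 20S and 19S subunits lie between about 15 and 100 RPKM, above the immunoproteasome and assembly genes, and the points of the groups part visibly in Psmd8, Psme4 and Psmg4.

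The promoters of the 3 members that changed most are shown because they are the sequence next to the transcription starts of the genes on which the results turn. Each runs from 250 bases before to 50 bases after the start annotated by RefSeq on GRCm38.p6, and is written on the gene's own strand. Capitals mark letters of the antioxidant response element core TGACNNNGC, the site class bound by the proteasome gene regulator Nfe2l1 with small Maf proteins, or of the interferon-stimulated response element, each searched on both strands.
Psmd8 (chr7:29180624-29180923, minus strand): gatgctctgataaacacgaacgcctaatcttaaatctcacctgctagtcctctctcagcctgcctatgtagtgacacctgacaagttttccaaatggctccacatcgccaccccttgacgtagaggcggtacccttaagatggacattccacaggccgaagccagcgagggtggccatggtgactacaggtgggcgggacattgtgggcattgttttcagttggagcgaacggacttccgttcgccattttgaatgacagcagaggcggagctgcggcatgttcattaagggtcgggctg
Psme4 (chr11:30771525-30771824, plus strand): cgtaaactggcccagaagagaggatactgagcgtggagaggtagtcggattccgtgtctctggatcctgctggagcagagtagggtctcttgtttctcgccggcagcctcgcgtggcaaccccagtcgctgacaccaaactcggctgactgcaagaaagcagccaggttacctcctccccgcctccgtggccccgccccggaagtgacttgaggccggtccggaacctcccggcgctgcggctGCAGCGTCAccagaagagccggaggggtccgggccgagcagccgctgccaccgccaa
Psmg4 (chr13:34162714-34163013, plus strand): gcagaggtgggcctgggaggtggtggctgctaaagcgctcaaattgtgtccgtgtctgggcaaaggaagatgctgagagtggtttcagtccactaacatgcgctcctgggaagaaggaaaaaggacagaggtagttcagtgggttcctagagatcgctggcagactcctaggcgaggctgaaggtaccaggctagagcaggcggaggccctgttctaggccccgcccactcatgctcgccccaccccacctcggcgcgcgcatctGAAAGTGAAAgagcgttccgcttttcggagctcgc
The Psme4 window held 1 antioxidant response element core, read on the opposite strand, and the Psmg4 window held 1 interferon-stimulated element, while the Psmd8 window held the letters of neither. Of the 42 members with a promoter in the RefSeq table, 6 (14.3%) held the antioxidant core, against 12.5% of 27025 promoters of the same length. These 6 were Psmb5, Psmb6, Psmc6, Psmd9, Psmd12 and Psme4, of which Psmb5 and Psme4 were lower and the others were not called. The interferon-stimulated element was found in 5 member promoters (11.9%, against 3.49% of all), those of Psmb3, Psmd4, Psmd9, Psme1 and Psmg4. Of these, Psmb3 and Psmg4 were higher, Psme1 was lower and the others were not called. The matches of Psmg4 and Psme1 lay past the start, at positions 16 and 10 counted from it. The windows of Psmb8, Psmb9, Psmb10 and Psme2 held no such match. The CCAAT box was found in 15 member promoters (35.7%, against 37.9%). A match is only a match of letters, and no binding was measured in these libraries.

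The alpha ring closes the ends of the 20S core and holds the gate through which substrates pass. It had 7 constitutive members, of which Psma1 and Psma6 were higher, none was lower and 5 were not called (28.6% called). The background was 50.3% of all tested genes and 63.8% of those with a mean of at least 5 RPKM. Without scaling 4 of the 7 were higher (background 35.2%). Psma1 was listed at 25.5 and 28.8 RPKM in Het and at 32.9 and 33.0 RPKM in Nf1-KO. The groups did not overlap, and the Het libraries lay further apart than the Nf1-KO libraries. The log2 fold change came to 0.18 ± 0.056 (standard error; limma adjusted p 0.037), and the call was lost without Het replicate 1, where the value was 0.09. Psma6 rose from a mean of 61.1 ± 0.035 RPKM to 69.6 ± 1.03 RPKM (SD, n = 2), by log2 fold change 0.09 (limma adjusted p 0.019) that lost its call in 3 of the 4 fits that leave out a library. The uncalled Psma2, Psma3, Psma4, Psma5 and Psma7 had log2 fold changes between -0.08 and 0.10. Psma8, the form of the alpha ring made in testis, was listed at 0.01 to 0.04 RPKM and was not tested.

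The beta ring holds the active sites, and its members moved in both directions by small amounts. Of 7 constitutive members, 3 were higher, 2 were lower and 2 were not called (71.4% called). The background was 50.3% of all tested genes and 63.8% of those with a mean of at least 5 RPKM. Without scaling 3 of the 7 were higher (background 35.2%) and 1 lower (background 17.6%). Psmb4, a structural subunit without an active site, was listed at 80.0 and 77.9 RPKM in Het and at 94.8 and 96.0 RPKM in Nf1-KO. Both Nf1-KO libraries lay above both Het libraries. The log2 fold change came to 0.18 ± 0.0227 (standard error; limma adjusted p 0.0012). Psmb2, a subunit without a counterpart in the immunoproteasome, was listed at 16.94 to 17.70 RPKM over the 4 libraries and was not called (-0.10, limma adjusted p 0.061). The structural subunits Psmb1 and Psmb3 were higher too, with log2 fold changes of 0.12 (limma adjusted p 0.013) and 0.10 (limma adjusted p 0.026). Psmb1 also lost its call without Het replicate 2 (adjusted p 0.065), and Psmb3 lost it without either Het library or without Nf1-KO replicate 1.

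The 3 constitutive catalytic subunits did not rise with them. Psmb5, which carries the chymotrypsin-like activity, was listed at 45.6 and 46.7 RPKM in Het and at 43.1 and 41.1 RPKM in Nf1-KO. Its groups did not overlap, with both Nf1-KO libraries below both Het libraries. The log2 fold change came to -0.22 ± 0.0323 (standard error; limma adjusted p 0.0019). Psmb6, the caspase-like subunit, was listed at 67.0 and 68.9 RPKM in Het and at 64.4 and 70.5 RPKM in Nf1-KO. The Nf1-KO libraries lay on either side of the Het libraries as deposited, and the log2 fold change of -0.10 was not called (interval -0.21 to 0.00). Psmb7, the trypsin-like subunit, was listed at 44.7 and 44.1 RPKM in Het and at 44.5 and 45.5 RPKM in Nf1-KO. Its log2 fold change was -0.08 (limma adjusted p 0.047), the call nearest to the threshold, and it was 0.02 without scaling and lost its call in each fit that leaves out a library. Its exons overlap those of Nek6 on the other strand in GENCODE M21, and no source used here says that strand was counted.

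The immunoproteasome subunits were low in this muscle and did not rise. Psmb8 was listed at 2.79 and 3.13 RPKM in Het and at 1.88 and 2.84 RPKM in Nf1-KO. One Nf1-KO library was well below the Het libraries while the other lay between them, and the log2 fold change of -0.32 was not called (limma adjusted p 0.089, interval -0.64 to 0.00). That value turned on single libraries: it was -0.51 and called without Nf1-KO replicate 2 (limma adjusted p 0.0011), and -0.11 and not called without Nf1-KO replicate 1 (adjusted p 0.34). Psmb9 was listed at 2.48 and 2.30 RPKM in Het and at 1.93 and 1.77 RPKM in Nf1-KO. Both Nf1-KO libraries were below both Het libraries, and the log2 fold change came to -0.31 ± 0.0596 (standard error; limma adjusted p 0.0059). The authors' deposited table, where Psmb9 has a mean normalised count of 81, listed -0.48 with no call (adjusted p 0.27). Psmb10 was listed at 6.42 and 5.87 RPKM in Het and at 6.38 and 7.03 RPKM in Nf1-KO. Its groups overlapped, and its log2 fold change was 0.03 (limma adjusted p 0.74). Psmb11, the thymus form, was listed at 0.00 or 0.01 RPKM.

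The ratio of each immunoproteasome subunit to the subunit it replaces does not depend on the scaling between libraries. Psmb9 stood to Psmb6 as 0.0370 and 0.0334 in Het and as 0.0300 and 0.0251 in Nf1-KO. Psmb8 stood to Psmb5 as 0.0612 and 0.0670 in Het and as 0.0436 and 0.0692 in Nf1-KO. Psmb10 stood to Psmb7 as 0.144 and 0.133 in Het and as 0.143 and 0.155 in Nf1-KO. Only the Psmb9 ratio had groups that did not overlap, and its exact two-sided permutation p was 0.33, the smallest that 2 libraries against 2 allow. The permutation p was 1.0 for Psmb8 and 0.667 for Psmb10, and all 3 were 1.0 after Benjamini-Hochberg adjustment.

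Genes that work with the immunoproteasome in antigen presentation were examined beside it. Of 10 listed, 9 were tested, and 5 (55.6%) were lower, against 25.4% of all tested genes, as were 5 without scaling. H2-K1, a class I heavy chain, was listed at 29.0 and 27.4 RPKM in Het and at 15.0 and 15.6 RPKM in Nf1-KO, a log2 fold change of -0.93 (limma adjusted p 9.8e-06). B2m, the light chain of class I molecules, fell from a mean of 59.9 ± 0.714 RPKM to 36.4 ± 2.83 RPKM (SD, n = 2), by log2 fold change -0.80. H2-D1 and the peptidase Erap1 fell by 0.59 and 0.28 on the log2 scale. Tap1, a subunit of the peptide transporter, fell by 0.33 on the log2 scale, from 0.855 ± 0.00707 to 0.52 ± 0.0283 RPKM. Log2 fold changes of RPKM + 1 understate the changes of low genes. The scaled mean fell by 43.0% in Tap1 and by 43.1% in B2m. The exons of Tap1 overlap those of its neighbour Psmb9 on the opposite strand. Reads of the 2 genes thus cannot be told apart if strand was not used. Tap2, Tapbp and Irf1 had log2 fold changes between -0.02 and 0.05 and were not called. Nlrc5, the activator of class I genes, was listed at 0.27 and 0.23 RPKM in Het and at 0.05 and 0.06 RPKM in Nf1-KO, below the level for testing. Of the 11 leukocyte markers, 6 could be tested and all 6 were higher (background 24.9%), among them Cd74 from 15.3 ± 0.148 to 28.6 ± 1.11 RPKM. Below the level for testing, Ptprc and Itgam were higher in both Nf1-KO libraries, Cd3e and Cd79a were not, and Adgre1 was at 0. The part of cell content in these values was not tested.

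**Figure D3:**
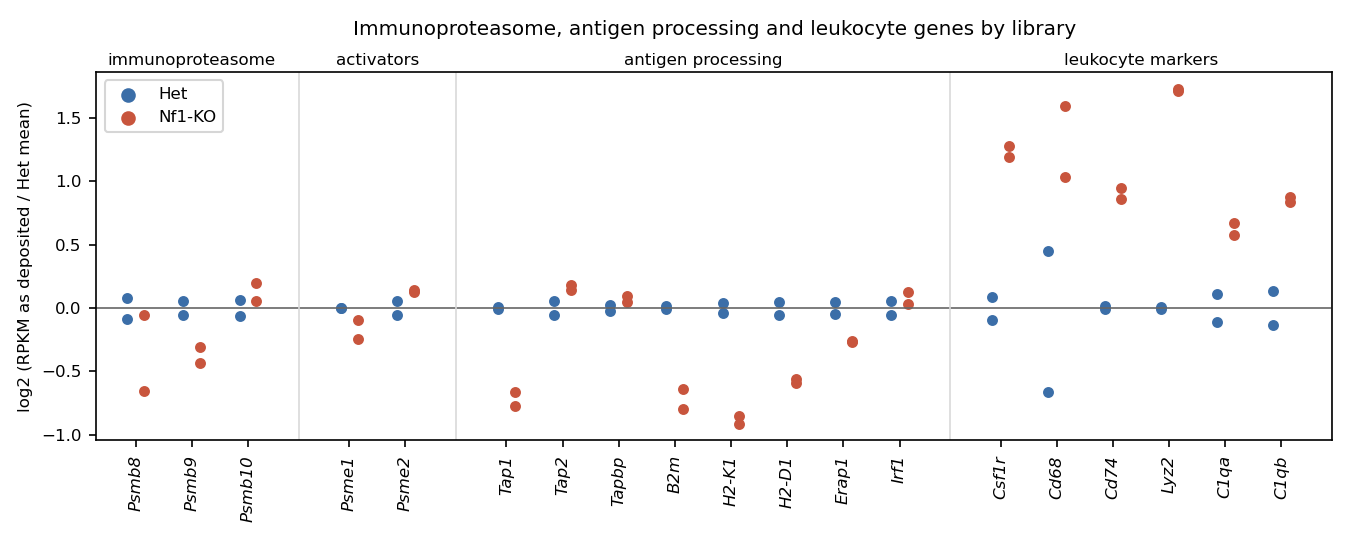
Log2 of RPKM as deposited over the Het mean for each library (Het blue, Nf1-KO red) in immunoproteasome subunits, the activators Psme1 and Psme2, antigen processing genes and tested leukocyte markers. Psmb9, Tap1, B2m, H2-K1, H2-D1 and Erap1 lie below 0 in both Nf1-KO libraries, and the 6 leukocyte markers lie above it in both.

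The 19S cap begins with a ring of 6 ATPases, which unfold the substrate and open the gate of the core. None of the 6 was called in either direction (background 50.3% of all tested genes). Without scaling 2 of the ATPases (Psmc3 and Psmc6) were called higher (background 35.2%). The log2 fold changes of the 6 ran from -0.06 in Psmc4 to 0.07 in Psmc3, with Psmc1 and Psmc5 at -0.05 and Psmc2 at -0.02. It was the narrowest range of the groups with more than 3 tested members. Psmc6 showed how close libraries could be, with 45.9 RPKM in both Het libraries and 49.7 RPKM in both Nf1-KO libraries, a log2 fold change of 0.02 after scaling (interval -0.03 to 0.08) and 0.11 before it. Psmc3, the most abundant, was listed at 78.7 and 80.7 RPKM in Het and at 90.9 and 87.7 RPKM in Nf1-KO (limma adjusted p 0.078).

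The 11 non-ATPase subunits of the 19S cap include the scaffolds and the receptors and enzyme that handle ubiquitin. Of these, 3 were lower (background 25.4%), none was higher (background 24.9%) and 8 were not called. Without scaling 2 of the 11 were lower (background 17.6%) and 6 higher (background 35.2%). Psmd8, a subunit of the lid known as Rpn12, was listed at 56.9 and 53.4 RPKM in Het and at 34.6 and 33.1 RPKM in Nf1-KO. The groups were far apart compared with the gap between libraries of a group. The scaled mean of Psmd8 fell by 42.5% (log2 fold change -0.78, standard error 0.0386, limma adjusted p 2.1e-05). It was called in each of 12 alternatives, with log2 fold changes from -0.83 to -0.69. The authors' deposited table gave -0.81 for Psmd8 on a mean normalised count of 4637.

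The fall of Psmd8 was set against the other subunits of the same cap. The mean of the other 16 subunits of the cap was 47.3 and 47.2 RPKM in Het and 49.6 RPKM in both Nf1-KO libraries. Psmd8 thus stood at 1.20 and 1.13 times that mean in Het and at 0.697 and 0.668 times in Nf1-KO, a ratio within each library that scaling cannot move and that was chosen after its values were seen. In the genome, Psmd8 lies between Ggn and Catsperg1 in GENCODE M21 and overlaps the exons of neither. Ggn was listed at 0.02 to 0.18 RPKM and Catsperg1 at 0.00 or 0.01 RPKM.

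Psmd6 (Rpn7) and Psmd2 (Rpn1), the other lower subunits of the cap, changed far less. Psmd6 was listed at 69.8 and 67.4 RPKM in Het and at 63.9 and 64.5 RPKM in Nf1-KO, with a log2 fold change of -0.19 (limma adjusted p 0.0014). Psmd2, a large scaffold that binds ubiquitin shuttles, was listed at 83.9 and 83.4 RPKM in Het and at 83.1 and 82.7 RPKM in Nf1-KO. Its deposited values nearly coincided, so its call (log2 fold change -0.11, limma adjusted p 0.0062) came with the scaling, and without it the value was -0.01 (adjusted p 0.61). It was lost with no variance trend too (adjusted p 0.057). The ubiquitin receptor Psmd4 (Rpn10) had 0.05 and the deubiquitinase Psmd14 (Rpn11) had -0.11, which was the nearest value outside the threshold (limma adjusted p 0.055). The remaining uncalled subunits, Psmd1, Psmd3, Psmd7, Psmd11, Psmd12 and Psmd13, had log2 fold changes between -0.05 and 0.08.

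**Figure D4:**
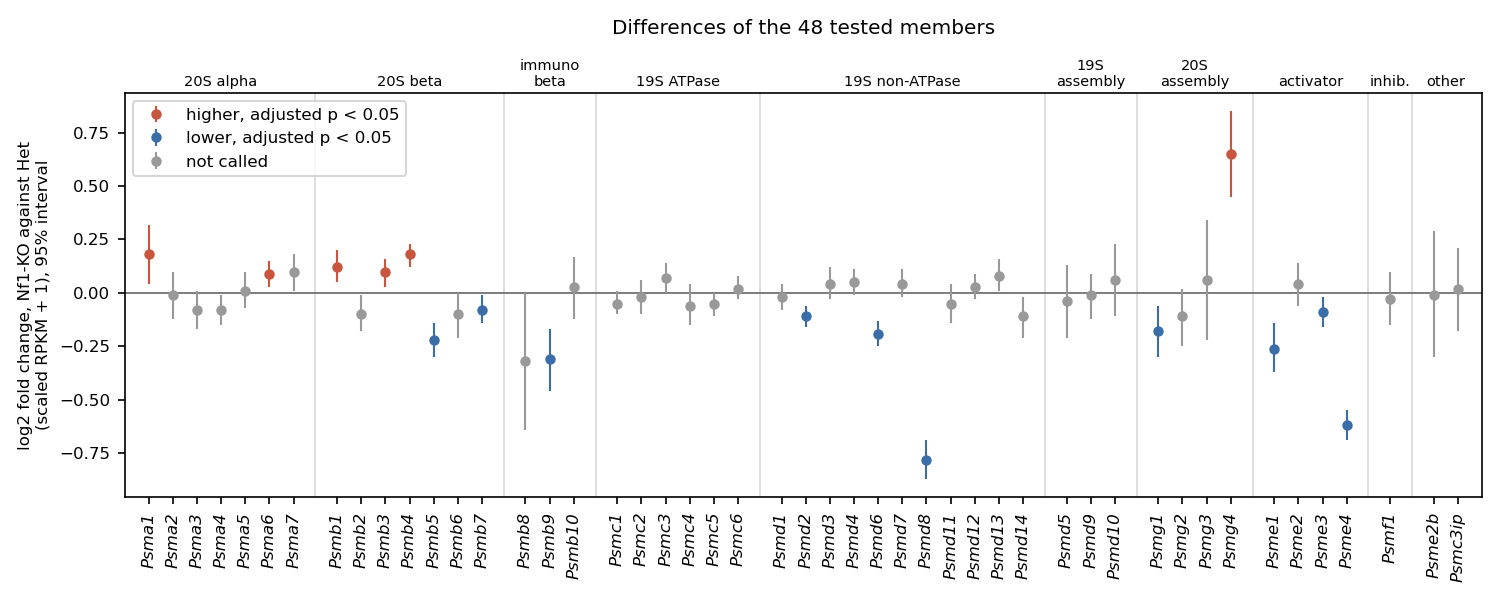
Log2 fold change of Nf1-KO against Het (scaled RPKM + 1) for the 48 tested members, with the 95% interval from limma as bars, coloured by call. Most values lie within 0.2 of 0, with Psmd8 at -0.78, Psme4 at -0.62 and Psmg4 at 0.65 apart from them.

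The precision of the uncalled values can be read from their intervals. Among the 22 uncalled members with a mean of at least 10 RPKM, the 95% intervals, which are not adjusted for their number, reached from -0.21 in Psmd14 to 0.18 in Psma7. The bounds hold only under the scaling used, and for genes chosen because they had no call. Without scaling, Psma7 had a log2 fold change of 0.19 (limma adjusted p 0.0065), beyond its bound. Of the 31 constitutive 20S and 19S subunits, 30 had an absolute log2 fold change under 0.25, and the remaining one was Psmd8. By scaled values the Het and Nf1-KO libraries did not overlap in 35 of the 48 members, 14 higher and 21 lower, against 76.3% of all tested genes.

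Assembly of the core and the cap is guided by chaperones that leave the finished particle. The 3 chaperones of the cap, Psmd5, Psmd9 and Psmd10, had log2 fold changes of -0.04, -0.01 and 0.06 and were not called. Among the 4 chaperones of the core, Psmg1 to Psmg4, 1 was higher, 1 was lower and 2 were not called, and without scaling 1 was higher and none lower. Psmg4, which works with Psmg3 as a pair in building the alpha ring, was listed at 3.95 and 4.90 RPKM in Het and at 7.91 and 8.04 RPKM in Nf1-KO. The Het libraries differed from each other more than the Nf1-KO libraries did, but both lay below them. The scaled mean of Psmg4 was 68.8% higher in Nf1-KO (log2 fold change 0.65, standard error 0.0835, limma adjusted p 0.0011), and it was called in each of 12 alternatives (0.52 to 0.78).

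Depth was lower behind Psmg4 than behind most members, with a mean normalised count of 161 in the authors' deposited table, which listed it at 0.73 on the log2 scale (adjusted p 0.0063). Its partner Psmg3 was listed at 4.95 and 3.69 RPKM in Het and at 5.15 and 4.50 RPKM in Nf1-KO. Those groups overlapped, and the interval of its log2 fold change, from -0.22 to 0.34, was wide. Psmg1, of the other chaperone pair, fell by 0.18 on the log2 scale (limma adjusted p 0.023), and this call was lost without scaling (-0.10) and without Het replicate 1 or either Nf1-KO library. Its partner Psmg2 had -0.11 (limma adjusted p 0.14). The neighbours of Psmg4, Tubb2b and Slc22a23, had log2 fold changes of -0.24 and -0.14, and neither overlaps its exons.

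Activators bind the ends of the 20S core in place of the 19S cap. Of 4 activators, 3 were lower (background 25.4%) and none was higher, while without scaling 2 (Psme1 and Psme4) were lower and 1 (Psme2) higher. Psme4, or PA200, a single large protein, was listed at 37.5 and 36.2 RPKM in Het and at 25.4 and 25.1 RPKM in Nf1-KO. The groups were well separated and the libraries of each group nearly equal. The scaled mean of Psme4 fell by 35.8% (log2 fold change -0.62, standard error 0.0291, limma adjusted p 1.7e-05), and its call held in each of 12 alternatives (-0.65 to -0.53). In the authors' deposited table Psme4 had the highest mean normalised count of the members, 14711, and a log2 fold change of -0.65. Relative to the mean of the 14 constitutive 20S subunits, Psme4 stood at 0.830 and 0.808 in Het and at 0.527 and 0.513 in Nf1-KO, a ratio chosen after its values were seen. Psme4 lies between Acyp2 and Gpr75 in GENCODE M21 and overlaps the exons of neither. Acyp2, at 83.0 to 96.7 RPKM, was lower too (log2 fold change -0.19, limma adjusted p 0.025). Gpr75 was listed at 0.00 to 0.03 RPKM.

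Psme1 and Psme2 encode the alpha and beta subunits of PA28, an activator induced by interferon, which assemble into 1 ring. Psme1 was listed at 33.9 RPKM in both Het libraries and at 28.7 and 31.7 RPKM in Nf1-KO. Both Nf1-KO libraries were below the Het libraries and differed from each other, and the log2 fold change was -0.26 (limma adjusted p 0.0048). Psme2 was listed at 15.14 and 14.02 RPKM in Het and at 16.0 and 16.1 RPKM in Nf1-KO, with a log2 fold change of 0.04 that was not called (interval -0.06 to 0.14). The exons of Psme1 overlap those of Emc9 on the other strand. Psme3, the nuclear activator PA28 gamma, was listed at 22.1 and 22.4 RPKM in Het and at 22.3 and 22.1 RPKM in Nf1-KO. As deposited its groups overlapped, and its call (-0.09, limma adjusted p 0.036) was lost in 7 of 12 alternatives, among them no scaling and each fit that leaves out a library. The inhibitor Psmf1 (PI31), at 2.37 to 2.56 RPKM, had a log2 fold change of -0.03 and was not called, nor were Psme2b (-0.01) and Psmc3ip (0.02).

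**Figure D5:**
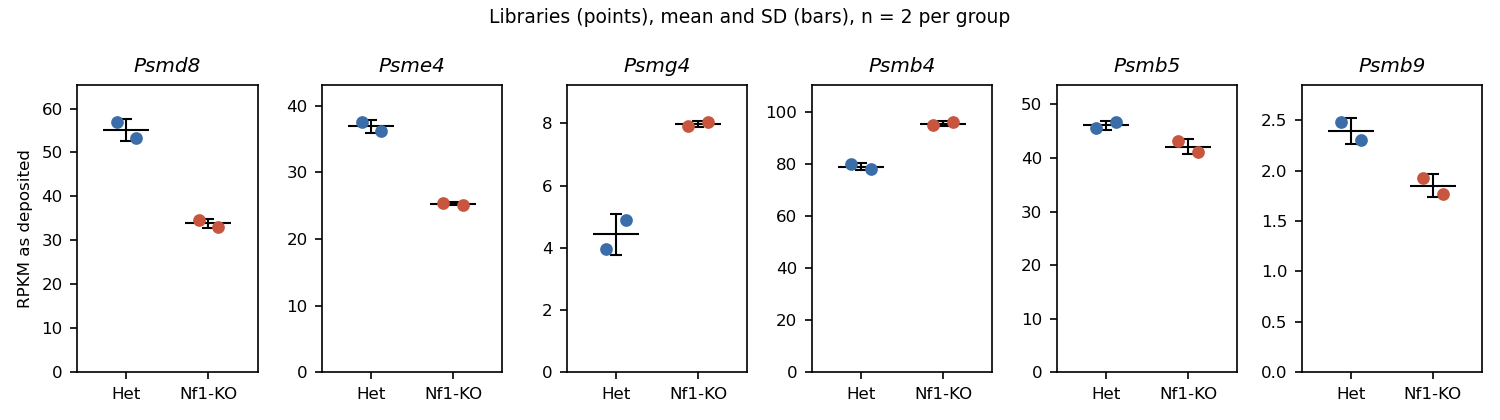
RPKM as deposited in each library (points; Het blue, Nf1-KO red) with the group mean and SD (black bars, n = 2) for Psmd8, Psme4, Psmg4, Psmb4, Psmb5 and Psmb9, each on its own axis from 0. The 6 genes were chosen from the called members, and the libraries of the groups do not overlap in any of them. By scaled values the groups do not overlap in 76.3% of all tested genes.

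Genes that supply, receive or regulate the proteasome were read from a list of 33, of which 32 were in the tables and 31 were tested. Of these 31, 9 were higher and 11 lower (64.5%, against a background of 50.3%), with a median log2 fold change of 0.00. Without scaling, 14 were higher and 8 lower. Of the ubiquitin genes and activating enzymes, Rps27a, which encodes ubiquitin fused to a ribosomal protein, rose by 0.21 on the log2 scale. The polyubiquitin gene Ubb, at 842 ± 7.2 and 898 ± 2.17 RPKM (SD, n = 2), had a log2 fold change of 0.00 after scaling (interval -0.04 to 0.04). The E1 enzyme Uba6 fell by 0.32, while Uba1 was not called. Without scaling Ubb (0.09, limma adjusted p 0.0035) and Uba1 (0.15, limma adjusted p 0.0063) were called higher.

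Among proteins that bind the proteasome or help it mature, 2 were higher and 4 lower of 11 tested (54.5%). The background was 50.3% of all tested genes and 63.8% at a mean of at least 5 RPKM. Ecpas (listed as AI314180), which links the cap to the core, fell from a mean of 27.2 ± 0.0849 RPKM to 20.5 ± 0.396 RPKM (SD, n = 2), by log2 fold change -0.48 (limma adjusted p 4.7e-05). The deubiquitinase Usp14, the ubiquitin receptor Adrm1 (Rpn13) and the ligase Ube3c fell by 0.15, 0.14 and 0.20, and these 3 calls were lost without scaling. Akirin2, an importer of proteasomes into the nucleus, rose by 0.29, and the ubiquitin-binding Zfand5 by 0.21. The 20S maturation factor Pomp had a log2 fold change of 0.00 (interval -0.10 to 0.10). Among shuttles and the p97 machinery, Ubqln4, Ufd1 (listed as Ufd1l), Vcp and Rad23b fell by 0.40, 0.31, 0.24 and 0.22, and Ubqln2 rose by 0.28.

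Of 7 genes that control transcription of the proteasome, 4 were higher and 2 lower (85.7% called). The background was 50.3% of all tested genes and 63.8% of those with a mean of at least 5 RPKM. Nfe2l1, the factor that raises proteasome genes when the proteasome is inhibited, was listed at 156 and 154 RPKM in Het and at 193 and 192 RPKM in Nf1-KO. Both Nf1-KO libraries lay above both Het libraries, and the log2 fold change came to 0.22 ± 0.0189 (standard error; limma adjusted p 0.00022). Its relative Nfe2l2 rose by 0.37. Ddi2, the protease that cuts the Nfe2l1 protein into its active form, fell from a mean of 5.72 ± 0.629 RPKM to 3.83 ± 0.0778 RPKM (SD, n = 2), by log2 fold change -0.55 (limma adjusted p 0.0011). Ngly1, which removes sugars from Nfe2l1, was not called (-0.04). Of the small Maf partners, Maff and Mafk rose by 1.05 and 0.60 and Mafg fell by 0.48. Their scaled means were 187% and 59.5% higher and 30.1% lower. These are transcript levels, and the processing of the Nfe2l1 protein was not measured.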

How the data were processed

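RNA of tibialis anterior muscle was sequenced in 4 libraries, 2 for each group. Per the labels' protocols, RNA was isolated on columns from frozen muscle and the TruSeq RNA kit, version 2, gave the libraries. STAR 2.4.2a, DESeq2 and build mm9 are named in the submitters' processing notes; the counting program, annotation and strandedness are not given in the sources used here. Each library's deposited table has 34682 rows whose unit is not named and was read from the values as RPKM. Per the file headers, the authors deposited a comparison table in the layout of DESeq2 output with a signal column (mean of counts divided by size factors), a log2 fold change with its standard error, a test score (their quotient), and p-values. Its header names no direction; for the 9 members it calls, its signs are those of Nf1-KO over Het in RPKM.

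The 33 rows with a number for a name were left out, and the highest copy was kept per name. Limma 3.58.1 in R 4.3.3 was run on log2(RPKM + 1), which understates changes of low genes, with a variance trend and no covariate, for genes of at least 0.5 RPKM in at least 2 libraries. Scale factors (0.967 to 1.03) came from the trimmed mean, without weights, of each library's log ratios, dropping 30% by ratio and 5% by abundance at each end. P-values are two-sided, with Benjamini-Hochberg adjustment across 10690 genes. The script was tested on simulated data. Levels and SD are of RPKM as deposited. Depth was estimated from whole-read steps of genes under 400 bases and set no test; 1 RPKM over 2 kb is then 73.0 to 116 reads. Mean normalised counts of the 48 members in the authors' deposited table were 53 to 14711. Members and lists were chosen with earlier results of these data known; all members are named, with full statistics for the largest changes and the catalytic subunits. All 50 were found by name in GENCODE M21 (GRCm38), 42 in the RefSeq promoter table (GRCm38.p6). The build differs from mm9, so positions are those of the reference only. Alternatives covered the pseudocount, filters, scaling, variance trend, replicate block, copies of a name, the 2 names that are no subunits, and leaving out each library. Some genes of the lists are counted but not reported here by name.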

Additional observations from a re-analysis of the deposited data

How the results depend on the processing

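Of 574 values of single members under 12 alternatives, 481 kept both direction and side of the test, 37 lost a call, 23 gained one and 33 turned in sign, in 20 members of which 1 was called. Summing copies and scaling by the median log ratio could hardly move a member. No member had more than 1 row, and the median scale factors were again 0.967 to 1.03. Of the 33, 2 had a call under 1 of the settings: without scaling Psmb7 went to 0.02 and Psmd1 to 0.07. The other 31 had none under either setting. Without scaling these log2 fold changes were Psma2 0.08, Psma3 0.01, Psma4 0.01, Psmc1 0.05, Psmc2 0.07, Psmc4 0.03, Psmc5 0.04, Psmd11 0.04, Psmd5 0.04, Psmd9 0.07, Psme2b 0.04, Psmf1 0.04, and with no filter that of Psma5 was 0.00. Ranges with each library left out, where the sign turned, were Psma2 -0.08 to 0.04, Psma5 -0.04 to 0.05, Psmb10 -0.03 to 0.09, Psmc2 -0.06 to 0.01, Psmc3ip -0.09 to 0.12, Psmd10 -0.04 to 0.15, Psmd5 -0.14 to 0.07, Psmd9 -0.04 to 0.03, Psme2 -0.01 to 0.09, Psme2b -0.19 to 0.18, Psmf1 -0.04 to 0.00, Psmg3 -0.12 to 0.23. Psmb4, Psmb5, Psmb9, Psmd6, Psmd8, Psme1, Psme4 and Psmg4 kept their calls in all 12. Without scaling, the higher members were 17 and the lower 6, the median log2 fold change of the members was 0.056 (-0.02 with scaling) and the summed ratio 1.04. The number of higher members was 2 with no filter and 2 without the variance trend; the cause was not tested. The summed ratio was 0.961 with no filter and 0.977 with at least 1 RPKM in every library. When each library was left out, the higher members were 3 to 7, the median -0.043 to -0.015 and the summed ratio 0.963 to 0.979. The log2 difference of the Psmb8 to Psmb5 ratio (-0.19 with all libraries) ran from -0.56 without Nf1-KO replicate 2 to 0.11 without Nf1-KO replicate 1. Libraries of the same replicate number did not deviate together (correlation -0.0179), so the numbers show no pairing; with the replicate block, 6 members were higher and 11 lower, with Psmb6, Psmb8 and Psmd14 gaining a call and Psmb7 and Psme3 losing it. Psmb9, with a mean normalised count of 81 in the authors' deposited table, was called here and not there; the cause was not tested.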
